A study of Saccharomyces cerevisiae with 22 samples.

Results

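The genes described here encode the nuclear subunits of the yeast respiratory chain and ATP synthase, cytochrome c, and the enzymes of the citrate cycle. They are defined by function and not by a threshold on the measured values, although the lists were drawn up with earlier results of these data known, and number 44 of the 6002 nuclear genes of Saccharomyces cerevisiae for which an upstream window could be set. The 44 are 4 subunits of complex II (SDH1, SDH2, SDH3, SDH4), 8 of complex III (COR1, QCR2, QCR7, QCR8, QCR9, QCR10, CYT1, RIP1), the cytochrome c gene CYC1, 9 of complex IV (COX4, COX5A, COX5B, COX6, COX7, COX8, COX9, COX12, COX13), 12 of ATP synthase (ATP1, ATP2, ATP3, ATP4, ATP5, ATP7, ATP14, ATP15, ATP16, ATP17, ATP18, ATP20) and 10 genes of the cycle (CIT1, ACO1, IDH1, IDH2, KGD1, KGD2, LSC1, LSC2, FUM1, MDH1). For each gene the window is the 1000 bp upstream of its start codon.

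The measurement is a calling-card assay, in which a transcription factor fused to Sir4 directs the retrotransposon Ty5 to integrate near the sites the factor occupies, and the integrations are read by sequencing. A multiplex experiment pooled 8 barcoded fusions, Sef1, Gal4, Yrm1, Rgm1, Rpi1, Kar4, Sfg1 and Lee1, in 2 biological replicates, which gives 16 libraries. Gal4, Leu3 and Gcn4 fusions overexpressed from a plasmid gave 1 library each, a Thi2 fusion gave 1 library from medium without thiamine and 1 from complete medium, and a strain with no Sir4 fusion gave 1 background library. Every library but the Thi2 pair came from a MATa/MATα diploid homozygous for leu2∆0, his3∆1 and ura3∆0 and for trp1::Hyg and sir4::KanMX, and heterozygous for lys2∆0 and met15∆0. The Thi2 strain is a MATa haploid with the alleles met15∆0, leu2∆0, his3∆1 and ura3∆0, with trp1::Hyg and sir4::KanMX, and with THI2::sir4, in which the fusion is made from its own locus. All libraries thus share the loss of SIR4 and TRP1. The labels do not say how the pooled fusions are carried, nor which libraries grew in glucose and which in galactose. Beyond the word biological for the 2 pools, nothing says that replicates came from separate cultures, so p-values measure the spread between these libraries, which may be technical.

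The citrate cycle oxidises acetyl groups in the mitochondrial matrix and passes electrons to the respiratory chain, both as NADH and through succinate dehydrogenase, which is complex II. Baker's yeast has no proton-pumping complex I, so electrons from NADH enter through simpler dehydrogenases and flow through complex III, cytochrome c and complex IV, while ATP synthase uses the proton gradient. Many of these genes are held low on glucose and raised on non-fermentable carbon by the Hap2/3/4/5 activator. Sef1 is a zinc cluster protein whose relative in Candida albicans controls iron uptake, Gal4 is the activator of galactose use, and Yrm1 is a zinc cluster activator of multidrug resistance genes.

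A library held 4755 to 79573 distinct sites, 444512 in all 22, where a site is 1 position and direction of insertion. Sef1 had 15004 and 14345 sites, Gal4 16116 and 13886, Yrm1 14472 and 14849, Rgm1 4755 and 4946, and the Sir4-free library 79573. The known targets stood where the labels put them: the GAL1 window held 610 and 534 sites in the pooled Gal4 libraries and 182 in the plasmid Gal4 library, against 17 in the Sir4-free library, the LEU1 window held 184 sites with Leu3 against 37, the ARG3 window 269 with Gcn4 against 22, and the FIG2 window 394 and 268 with Kar4 against 4. The SIR4 reading frame, deleted in these strains, held 0 to 5 sites in any library. File positions on chromosome 11 past 200000 bp lie below those of the reference annotation by a constant step and were moved to match it. Sites within the window do not show that the fusion acts on that gene, because many yeast windows also belong to a neighbour.

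Insertions near these genes were most frequent with Sef1. The windows of the 44 genes together held 1018 and 989 Sef1 sites, which is 6.78% and 6.89% of the sites of those libraries, with exact Clopper-Pearson 95% intervals of 6.39 to 7.20% and 6.49 to 7.32%. The Sir4-free library had 806 sites there, or 1.01% (0.944 to 1.08%). The intervals cover counting error only, since reads amplified by PCR without molecular tags do not show how many independent insertions lie behind a site. The mean share was 6.84% ± 0.0775 (SD, n = 2) with Sef1, 1.34% ± 0.0935 with pooled Gal4, 1.29% ± 0.0813 with Yrm1, and between 0.743% with Kar4 and 0.994% with Lee1 for the other 5 pooled fusions. Gal4 from the plasmid had 1.14%, Gcn4 0.814%, Leu3 0.797%, Thi2 without thiamine 0.567% and Thi2 in complete medium 0.789%. The Sef1 pair stood alone: no other library exceeded 1.40%, the share of Gal4 in pool 2.

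The Sef1 share was unevenly spread over the complexes. The citrate cycle took 662 and 624 Sef1 sites, 4.38% ± 0.0440 of the libraries (SD, n = 2), against 238 sites or 0.299% in the Sir4-free library, a ratio of 14.6. Complex III took 279 and 281 Sef1 sites, 1.91% ± 0.0703, against 0.212%, a ratio of 8.99. The ATP synthase genes had 54 and 59 sites, 0.386% ± 0.0363, against 198 sites or 0.249%, a ratio of 1.55. The remaining complexes showed no such excess. Complex II had 10 and 9 Sef1 sites, 0.0647% ± 0.00276, against 55 sites or 0.0691% in the Sir4-free library. Complex IV had 10 and 10 Sef1 sites, 0.0682% ± 0.00217, which lies above pooled Gal4, below the other 6 pooled fusions, of which the highest had 0.128%, and below the 0.152% of the Sir4-free library. CYC1 had 3 and 6 Sef1 sites, 0.0309% ± 0.0154, against 25 sites or 0.0314%.

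**Figure D1:**
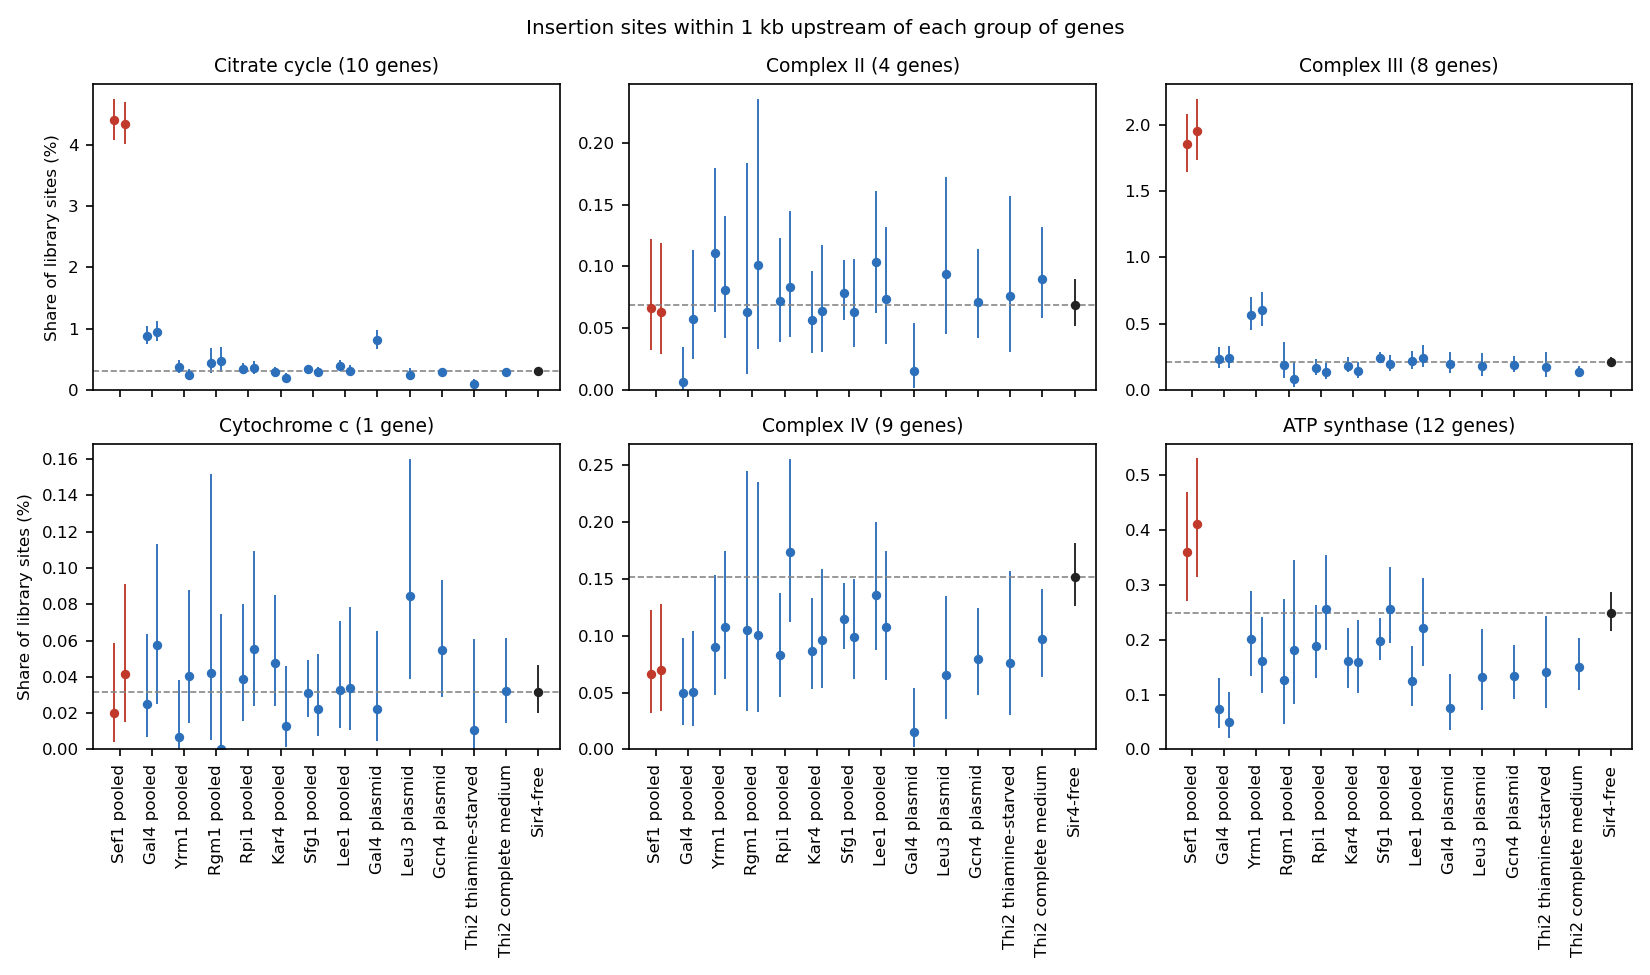
Share of each library's distinct sites (percent, vertical axes) that fell in the windows of each complex, of CYC1 and of the citrate cycle, with a point and an exact 95% interval for each library and a dashed line at the Sir4-free share. The Sef1 libraries stand apart in the citrate cycle (4.38%) and complex III (1.91%) panels, and lie among the other libraries for complexes II and IV.

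Window by window, 8 of the 43 members tested were higher with Sef1 than with the mean of the other 7 pooled fusions and 0 were lower (edgeR quasi-likelihood test, Benjamini-Hochberg adjusted p below 0.05). That mean is taken over the fitted log values of the fusions, so a fusion with few or 0 sites lowers it and raises the fold. At an unadjusted p below 0.05 edgeR had 0 lower against the other fusions and 3 against the Sir4-free library, and DESeq2 called 0 lower in both. Over all 4998 windows tested, 4.76% were called higher and 0.02% lower. Among 44 tested against the Sir4-free library the same 8 genes were higher, where 3.42% of 5534 windows were higher and 0.452% lower. The counts over all windows depend on scaling: 238 higher and 1 lower against the other fusions became 144 and 32 with DESeq2's size factors, and 189 and 25 against the Sir4-free library became 137 and 163. The 8 members were called higher under each scaling tried. The median log2 fold was 0.12 over the members and -0.05 over all windows against the other fusions, and -0.73 and -1.18 against the Sir4-free library. With DESeq2's size factors the medians over all windows were -0.57 and -1.69, so each Sef1 fold below sits on a background that is itself below 0. By complex, the calls were 6 of 10 citrate cycle genes, 1 of 8 in complex III, 1 of the 11 tested in ATP synthase, and 0 in complex II, complex IV and for CYC1.

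**Figure D2:**
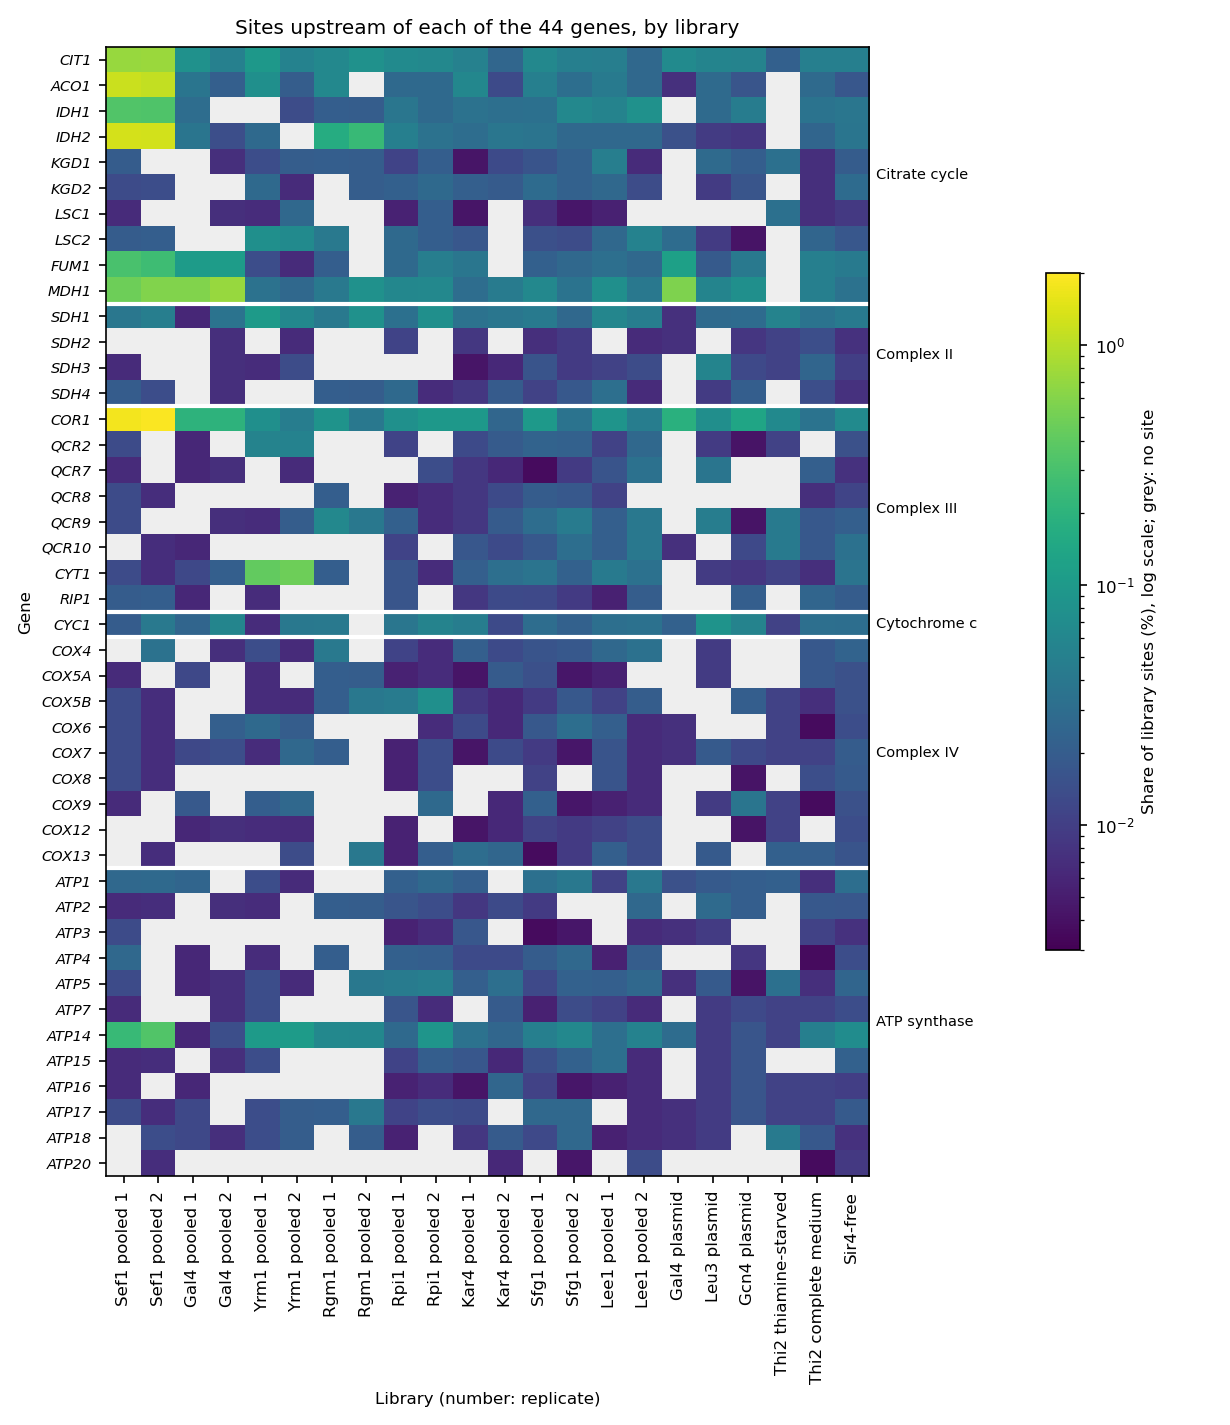
Share of each library's sites in the window of each member (rows, by complex and cycle) in each library (columns), coloured on a log scale. High values in the Sef1 columns stand at CIT1, ACO1, IDH1, IDH2, FUM1, MDH1, COR1 and ATP14, MDH1 is also high in the Gal4 columns and CYT1 in the Yrm1 columns.

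CIT1 encodes mitochondrial citrate synthase, which joins acetyl-CoA to oxaloacetate. Its window held 110 and 109 sites in the Sef1 libraries, 0.733% and 0.760%. The other 14 pooled libraries had 3 to 34 sites, with shares of 0.0256 to 0.0967% and a median of 0.0579%, and the Sir4-free library had 40 sites. Both Sef1 libraries lay above all 14 others. The log2 fold was 3.82 ± 0.20 (SE) over the other fusions, with an adjusted p of 6.15e-79, and 4.0 ± 0.29 over the Sir4-free library, with an adjusted p of 4.82e-40. ACO1 encodes aconitase, the iron-sulfur enzyme that turns citrate into isocitrate. It held 177 and 158 Sef1 sites, 1.18% and 1.10%, against 0 to 27 sites in the other pooled libraries (median 0.0296%, highest 0.0760%) and 14 in the Sir4-free library. The Sef1 values did not overlap the others, and the log2 fold was 5.11 ± 0.20 over the other fusions (adjusted p 1.81e-146) and 6.09 ± 0.34 over the Sir4-free library (adjusted p 2.32e-67).

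IDH1 and IDH2 encode the subunits of the NAD-dependent isocitrate dehydrogenase, the next step of the cycle. IDH2 held 197 and 183 Sef1 sites, 1.31% and 1.28%, against 0 to 20 sites in the other 14 pooled libraries (median 0.0325%, highest 0.243% in an Rgm1 library) and 30 in the Sir4-free library. Its log2 fold of 5.24 ± 0.19 over the other fusions (adjusted p 1.37e-163) ranked 1 among the 4998 windows tested, and the fold over the Sir4-free library was 5.20 ± 0.31 (adjusted p 9.67e-61). IDH1 held 51 and 48 Sef1 sites, 0.340% and 0.335%, against 0 to 18 sites elsewhere in the pools (median 0.0315%, highest 0.0807%) and 31 in the Sir4-free library. The partner subunit thus had fewer sites, and still no overlap between Sef1 and the other libraries. Its log2 fold was 3.82 ± 0.28 over the other fusions (adjusted p 1.1e-39) and 3.22 ± 0.33 over the Sir4-free library (adjusted p 6.12e-21).

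FUM1 encodes fumarase, which hydrates fumarate to malate. It held 46 and 38 Sef1 sites, 0.307% and 0.265%, against 0 to 17 sites in the other pooled libraries (median 0.0269%, highest 0.108%) and 35 in the Sir4-free library. Sef1 was above every other pooled library, with a log2 fold of 3.59 ± 0.30 over the other fusions (adjusted p 1.57e-31) and 2.81 ± 0.33 over the Sir4-free library (adjusted p 1.75e-15). MDH1 encodes mitochondrial malate dehydrogenase, which closes the cycle. It held 72 and 83 Sef1 sites, 0.480% and 0.579%, against 2 to 103 sites in the other 14 (median 0.0529%, highest 0.742%) and 28 in the Sir4-free library. Here the groups overlapped, because the 2 Gal4 libraries were as high as Sef1. The log2 fold was 3.03 ± 0.22 over the other fusions (adjusted p 1.02e-39) and 4.01 ± 0.34 over the Sir4-free library (adjusted p 8.6e-31).

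The other 4 genes of the cycle had few sites. KGD1 and KGD2, subunits of 2-oxoglutarate dehydrogenase, had 3 and 0 and 2 and 2 Sef1 sites. LSC1 and LSC2, subunits of succinyl-CoA ligase, had 1 and 0 and 3 and 3. None of the 4 was called, in either fit. The called genes therefore cover the steps from citrate synthesis to isocitrate oxidation and from fumarate back to oxaloacetate, and the uncalled ones the steps between, with complex II among them. The median log2 fold over the 10 genes was 3.31 against the other fusions and 3.01 against the Sir4-free library.

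COR1 encodes a core subunit of complex III. Its window had the highest Sef1 count of any member, 267 and 275 sites or 1.78% and 1.92%, and ranked 4 of 6002 windows by Sef1 share. The other pooled libraries had 2 to 54 sites (median 0.0809%, highest 0.202%) and the Sir4-free library 53. With no overlap, the log2 fold was 4.64 ± 0.17 over the other fusions (adjusted p 1.73e-166) and 4.90 ± 0.31 over the Sir4-free library (adjusted p 2.46e-54). COR1 made up nearly all Sef1 sites of the 8 complex III genes counted here, which do not include QCR6, described at the end. The other 7 had 0 to 3 sites per Sef1 library, among them RIP1, the Rieske iron-sulfur protein, with 3 and 3, and CYT1, cytochrome c1, with 2 and 1. ATP14, which encodes subunit h of ATP synthase, held 36 and 49 Sef1 sites, 0.240% and 0.342%, against 1 to 27 sites in the other pooled libraries (median 0.0514%, highest 0.108%) and 57 in the Sir4-free library. Sef1 again lay above all 14 others, with a log2 fold of 2.89 ± 0.27 over the other fusions (adjusted p 9.35e-25) and 2.13 ± 0.30 over the Sir4-free library (adjusted p 8.57e-11).

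Both Sef1 libraries exceeded all other 14 pooled libraries at 7 of the 44 members, which is 15.9%, while 141 of all 6002 windows (2.35%) did so. Leaving out any 1 of the 16 pooled libraries ended no Sef1 call, against the other fusions or against the Sir4-free library. It raised the log2 fold over the other fusions by more than 1.5 times on the linear scale at ACO1, to 5.81 without Rgm1 replicate 1, at IDH1, to 4.55 without Gal4 replicate 1, at IDH2, to 5.90 without Yrm1 replicate 1, and at FUM1, to 4.31 without Kar4 replicate 1. In each of these fits the remaining library of that fusion had 0 sites at the gene, so the raised fold depends on the prior count that the fit adds. With a window of 500 bp the calls of COR1 and ATP14 over the Sir4-free library were lost, at log2 folds of 1.48 (adjusted p 0.0775) and 0.78 (adjusted p 0.413).

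**Figure D3:**
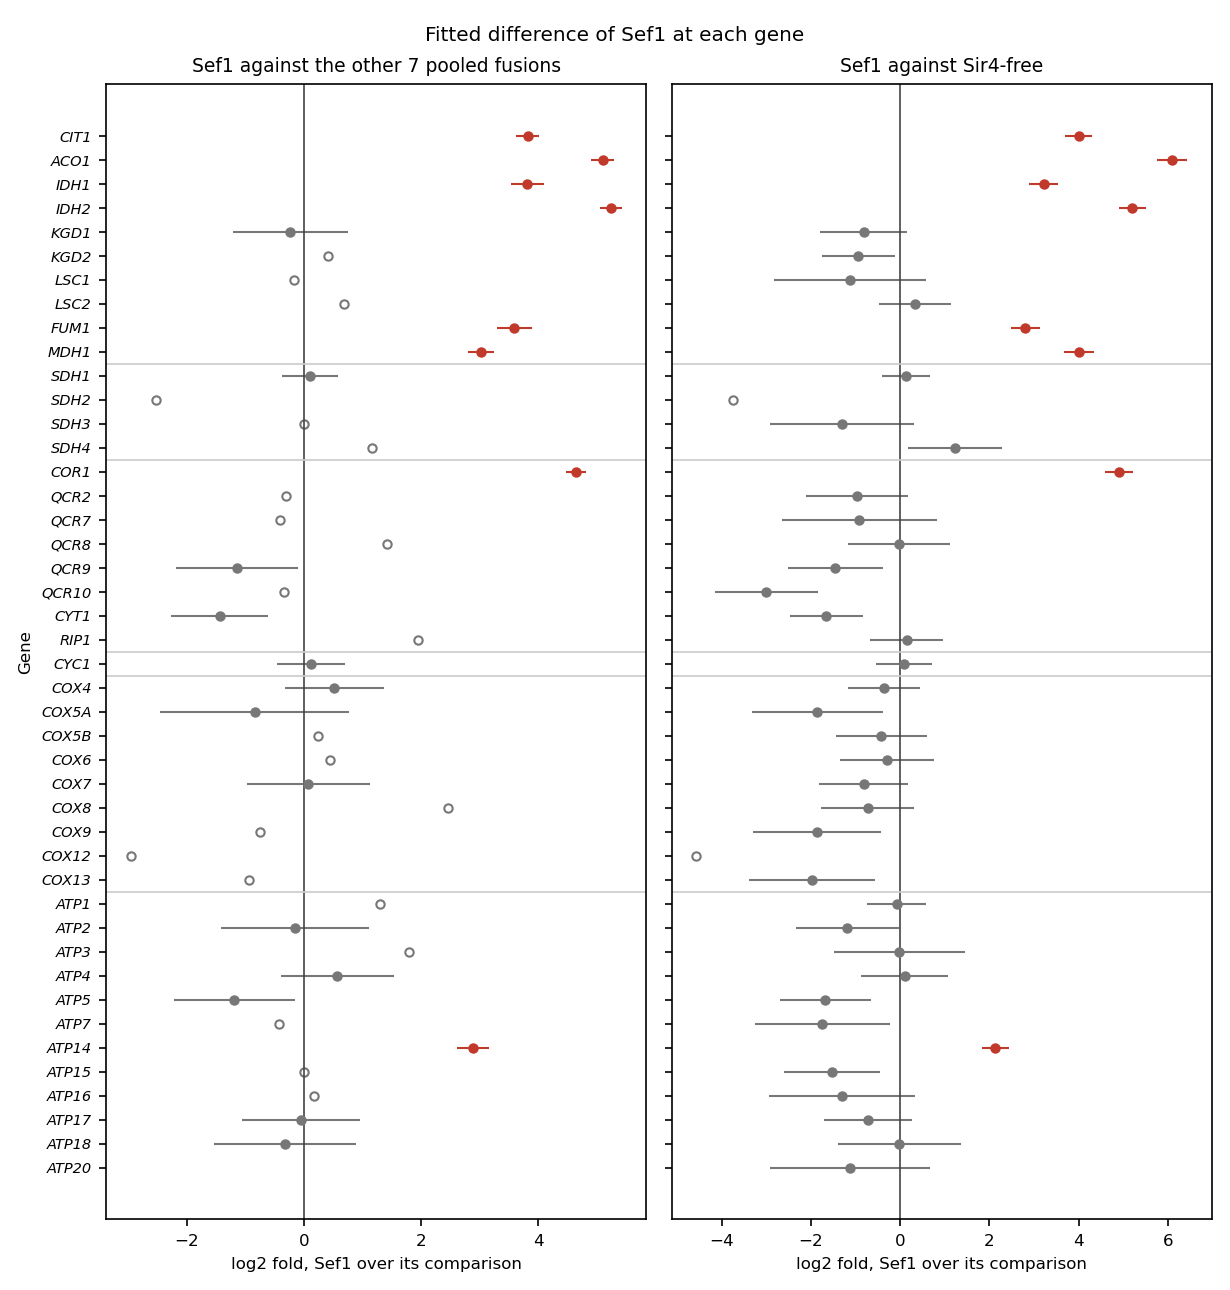
Log2 fold of distinct sites for Sef1 over the other 7 pooled fusions and over the Sir4-free library at each member, with standard errors. Open circles have no standard error because a fusion had 0 sites. The 8 called members, in red, lie between 2.13 and 6.09, and those not called lie between -2.96 and 2.46 over the other fusions, the highest of them without a standard error.

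The 36 members not called for Sef1 held 62 and 46 Sef1 sites together, 0.367% ± 0.0654 of the libraries (SD, n = 2), against 518 sites or 0.651% in the Sir4-free library. Their counts per member were 0 to 13 over both libraries, with a median of 2. The median log2 fold over the 35 of them tested was 0.00 against the other fusions, with a range of -2.96 to 2.46 and no adjusted p below 0.437. A count of 3 sites, the least taken as detectable, corresponds to 0.0209% of the smaller Sef1 library, so smaller shares could not be seen at this depth.

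Among these genes the most Sef1 sites lay at SDH1, the flavoprotein of succinate dehydrogenase, with 6 and 7 against 35 in the Sir4-free library. CYC1 had 3 and 6 against 25, ATP1, the alpha subunit of the ATP synthase head, 4 and 4 against 25, RIP1 3 and 3 against 16, and LSC2 3 and 3 against 14. The fewest lay at SDH2, the iron-sulfur subunit of complex II, and COX12, a small complex IV subunit, each with 0 and 0 against 6 and 11 in the Sir4-free library. QCR7 had 1 and 0 against 6, SDH3 1 and 0 against 8, and QCR10 0 and 1 against 27. With the chromosome 11 displacement taken from 150000 bp, SDH3 had 5 and 0 Sef1 sites against 14, no longer among the fewest, and SDH1 8 and 8 against 38, so the complex II share depends on that boundary. No complex II member had an unadjusted p below 0.05 in edgeR, against the other fusions or against the Sir4-free library, and the same holds for CYC1. In complex IV, COX8 had one above the other fusions (2 and 1 Sef1 sites, p 0.0449, adjusted p 0.508) and 1 gene had one below the Sir4-free library, while DESeq2 called 0 genes in these 3 sets.

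Within their windows the Sef1 sites were gathered at different distances from the start codon. At ACO1 the median distance was 251 and 262 bp upstream in the 2 Sef1 libraries, against 239 bp in the Sir4-free library. At FUM1 it was 266 and 272 bp against 477 bp. IDH1 had medians of 310 and 313 bp, against 531 bp in the Sir4-free library. At IDH1 most insertions pointed one way, with 82.4% and 79.2% in the plus direction, against 54.8% in the Sir4-free library. CIT1 had medians of 437 and 412 bp against 430 bp. IDH2 had medians of 422 and 408 bp against 359 bp, and a smaller group of 29 and 30 Sef1 sites in the 250 bp at the far end of its window, against 2 in the Sir4-free library. The 2 Sef1 replicates thus differed little from each other at these genes, and the background sites were not at the same distance at FUM1 and IDH1.

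COR1 and ATP14 were different, with sites far from the start codon. At COR1 the Sef1 medians were 726 and 746 bp upstream, against 521 bp in the Sir4-free library, and both fall within the frame of YBL044W, an uncharacterised gene 482 to 850 bp upstream. The divergent gene ECM13 starts 1172 bp upstream, so its own window overlaps that of COR1. At ATP14 the medians were 796 and 661 bp, both within YLR296W (605 to 931 bp upstream). A further 73 and 52 Sef1 sites lay in the 250 bp beyond the far end of the ATP14 window, against 13 in the Sir4-free library. That stretch lies between YLR296W and YLR297W, which starts 1671 bp upstream. Whether the insertions at COR1 and ATP14 relate to these genes or to their neighbours cannot be told apart from site positions.

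Other called members also share upstream DNA. IDH1 has the divergent gene NCE103, which encodes carbonic anhydrase, starting 812 bp upstream, and FUM1 has KEL3 at 830 bp. The window of MDH1 overlaps that of CYT2, the gene of cytochrome c1 haem lyase, which starts 1260 bp upstream, and SRX1 lies between them at 459 to 842 bp. CIT1, ACO1 and IDH2 have no other window overlapping theirs. Reading frames still reach into 2 of them, that of BAG7 from 457 bp upstream of IDH2 and that of STT4 from 613 bp upstream of ACO1. The Sef1 sites at the far end of the IDH2 window thus lie within BAG7. Among the members called for other fusions, the windows of SDH1, QCR10, QCR2 and COX5B overlap those of AVT3, LEU5, RPC82 and HPM1. The window of GSP1 overlaps that of ATP14. In the members called for Sef1, the first 1000 bp of the gene itself held 0 to 4 sites per Sef1 library.

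**Figure D4:**
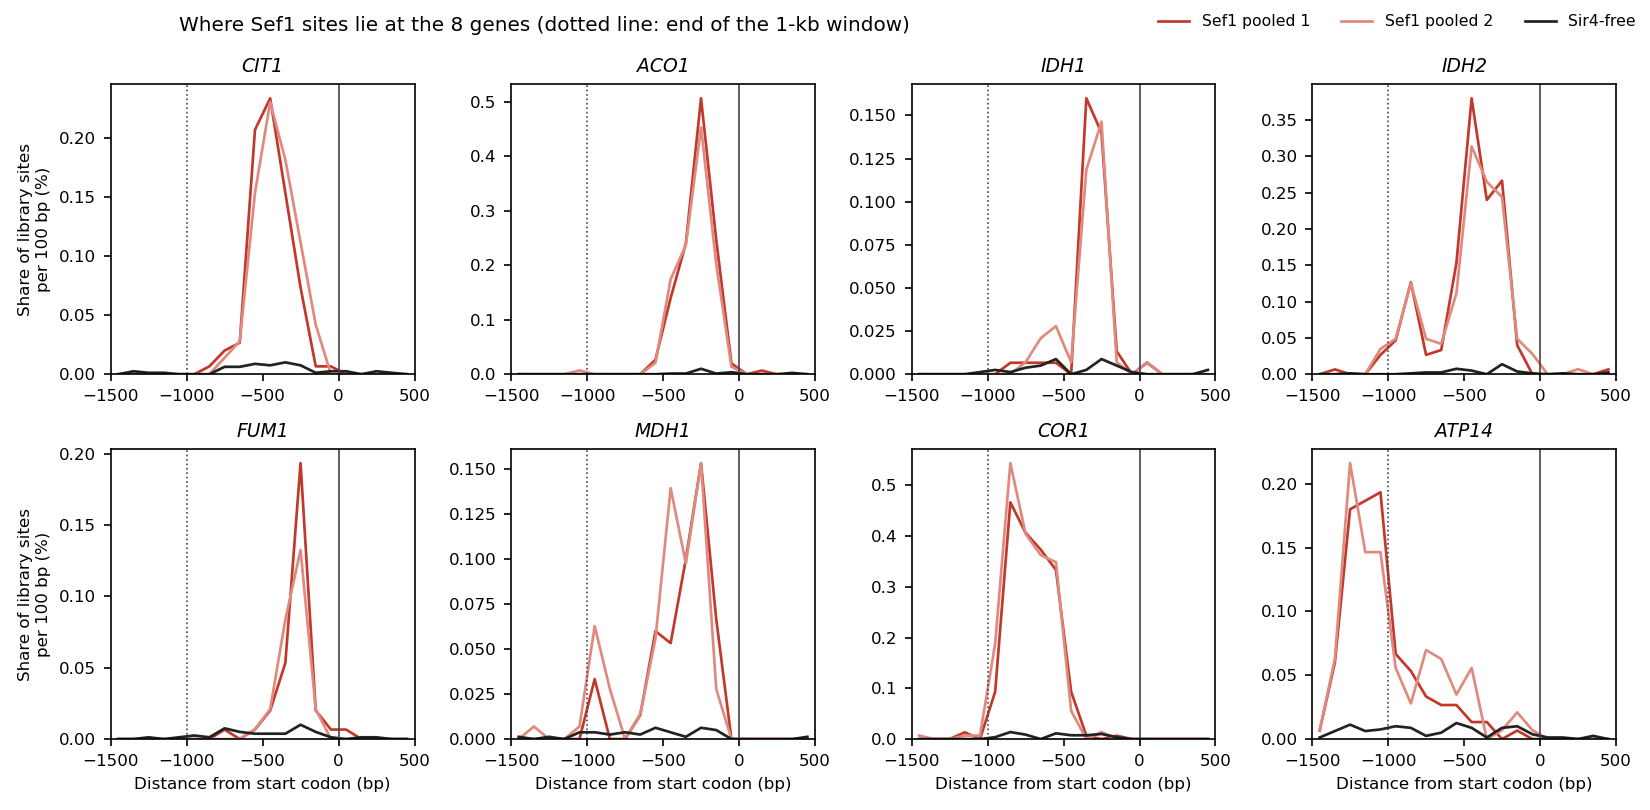
Sites in 100 bp bins of distance from the start codon (bp) at the 8 members called for Sef1, for the Sef1 libraries and the Sir4-free library, as shares of library sites. Medians in the first Sef1 library were 251 bp at ACO1, 437 bp at CIT1 and 726 bp at COR1, and at ATP14 the sites continue past 1000 bp.

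Many Sef1 sites were at the same base and direction in both replicates. At COR1 164 sites were shared by the 2 Sef1 libraries, of 267 and 275, at ACO1 102 of 177 and 158, and at IDH2 93 of 197 and 183. There were 47 shared sites at CIT1, 23 at MDH1, 22 at IDH1, 12 at FUM1 and 3 at ATP14. As a percentage of the sites of replicate 1 and of replicate 2, the shared sites were 61.4% and 59.6% at COR1, 43.1% and 45.8% at IDH1, and 8.33% and 6.12% at ATP14. Identical sites were not limited to the Sef1 pair. Of the Sir4-free sites, 11 of 14 at ACO1, 22 of 53 at COR1 and 8 of 30 at IDH2 were identical to a site of Sef1 replicate 1. So were 11 of 40 at CIT1, 6 of 35 at FUM1, 4 of 28 at MDH1, 4 of 31 at IDH1 and 3 of 57 at ATP14.

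Gal4 was high at MDH1. The pooled Gal4 libraries held 95 and 103 sites there, 0.589% and 0.742%, against 0.0269 to 0.579% in the other 14 pooled libraries (median 0.0529%) and 28 sites or 0.0352% in the Sir4-free library. The highest of the others was a Sef1 library, and both Gal4 libraries lay above it. The log2 fold was 3.81 ± 0.21 over the other fusions (adjusted p 7.19e-71) and 4.72 ± 0.33 over the Sir4-free library (adjusted p 1.01e-45). Gal4 made from a plasmid, in an unpooled library, gave 77 sites against 28 in the Sir4-free library, an odds ratio of 16.4 (10.5 to 26.3) with an adjusted p of 6.5e-40 in a two-sided Fisher's exact test, which compares these libraries and not the conditions. The Gal4 and Sef1 sites at MDH1 lay at different distances. The Gal4 medians were 594 and 604 bp upstream in the pools and 595 bp with the plasmid, over SRX1, and the Sef1 medians were 346 and 406 bp, with 534 bp in the Sir4-free library. Of the 95 and 103 pooled Gal4 sites, 13 and 11 were identical in base and direction to a site of the Sef1 library of the same pool. With the Sef1 library of the other pool 14 and 12 were identical.

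With pooled Gal4, 3 of 43 members were higher than with the other fusions and 1 was lower, beside 3.66% and 0.42% of all windows. Among 44 members 3 were higher and 1 lower than in the Sir4-free library, beside 3.29% and 1.16%. The Gal4 split over all windows moved with scaling, with 183 higher and 21 lower against the other fusions and 153 and 112 by library size alone, and with 182 and 64 against the Sir4-free library and 162 and 372 by library size alone. The median over all windows was -1.55 against the other fusions and -2.52 against the Sir4-free library, below that of Sef1. Besides MDH1, FUM1 had 17 and 15 Gal4 sites (0.105% and 0.108%), against a median of 0.0269% and a highest share of 0.307%, from Sef1, in the others. Its log2 fold was 2.38 ± 0.41 over the other fusions (adjusted p 1.3e-07), 3.12 without Kar4 replicate 1, and 1.78 ± 0.42 over the Sir4-free library (adjusted p 0.000711). The fold of 3.12 depends on the prior count, because Kar4 replicate 2 had 0 FUM1 sites. The plasmid library had 16 FUM1 sites against 35, which was not called (adjusted p 0.0562, Fisher's exact test).

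COR1 was the third gene called higher for Gal4, with 32 and 28 sites (0.199% and 0.202%), a log2 fold of 1.39 ± 0.30 over the other fusions (adjusted p 9.25e-05) and 2.09 ± 0.38 over the Sir4-free library (adjusted p 2.03e-06). Of the 32 sites in pool 1, 30 were identical in base and direction to a Sef1 site of the same pool, and 22 of 28 were so in pool 2. With the Sef1 library of the other pool, 25 of 32 and 21 of 28 were identical. In pool 1 the COR1 sites identical to a Sef1 site of that pool were 12 of 22 for Kar4, 13 of 16 for Lee1 and 2 of 4 for Rgm1. They were 11 of 14 for Rpi1, 33 of 54 for Sfg1 and 11 of 11 for Yrm1. The plasmid Gal4 library, which was not pooled with Sef1, had 25 COR1 sites against 53 in the Sir4-free library, an odds ratio of 2.81 (1.67 to 4.60, adjusted p 0.00247, Fisher's exact test), and 11 of its 25 sites were identical to a Sef1 site of pool 1. In the Sir4-free library 22 of 53 were. With sites of at least 5 reads only, the pooled COR1 log2 fold was 1.10 over the other fusions (adjusted p 0.114) and 1.25 over the Sir4-free library (adjusted p 0.154). The Gal4 sites at COR1 had medians of 772 and 814 bp upstream in the pools and 766 bp with the plasmid, within YBL044W. With a 500 bp window the pooled log2 folds were -0.051 over the other fusions and -1.19 over the Sir4-free library. The plasmid fold was then -1.40. What part barcodes exchanged between pooled fusions have in the COR1 value was not tested. ATP14 was lower with Gal4, with 1 and 2 sites against 3 to 49 in the other pooled libraries and 57 in the Sir4-free library, at log2 folds of -2.17 ± 0.70 (adjusted p 0.041) and -2.28 ± 0.74 (adjusted p 0.0374). The Gal4 medians over all windows were -1.55 and -2.52 in these comparisons, so the second ATP14 fold was no lower than that of the median window. Without Gal4 replicate 2 the ATP14 folds were -2.80 and -2.87. The first of these calls was lost without each of 7 libraries (both replicates of Gal4 and Kar4, and replicate 2 of Lee1, Rpi1 and Sef1), at adjusted p from 0.0505 to 0.787. The second was lost without Gal4 replicate 1 or 2, Kar4 replicate 1 or Lee1 replicate 2, at adjusted p from 0.0798 to 0.501.

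**Figure D5:**
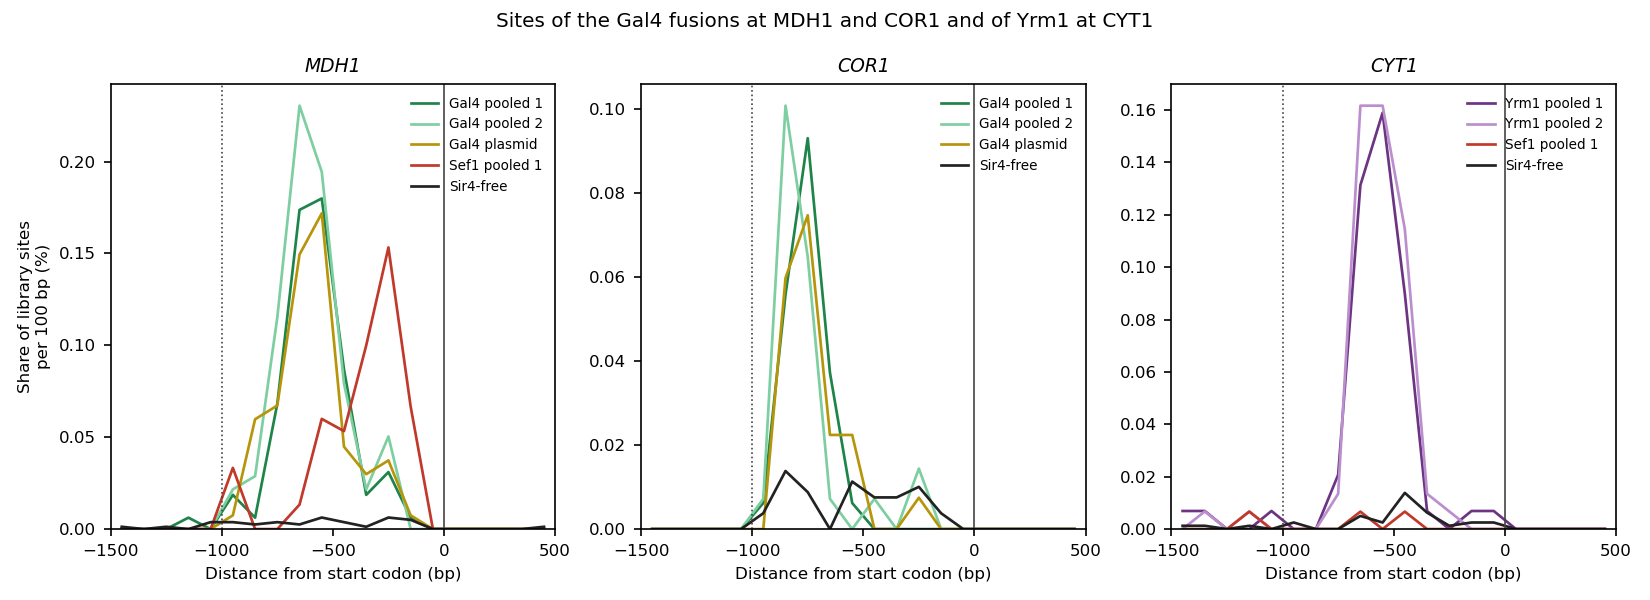
Share of library sites per 100 bp against distance from the start codon (bp) at MDH1 and COR1 for the Gal4 libraries and at CYT1 for the Yrm1 libraries, with Sef1 replicate 1 at MDH1 and CYT1 and the Sir4-free library throughout. Medians upstream were 594 and 604 bp for pooled Gal4 at MDH1 and 560 bp for Yrm1 at CYT1.

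Yrm1 was high at CYT1, the gene of the haem-bearing cytochrome c1 of complex III. Its window held 61 and 70 Yrm1 sites, 0.422% and 0.471%, against 0 to 0.0435% in the other 14 pooled libraries (median 0.0213%) and 29 sites or 0.0364% in the Sir4-free library. The Yrm1 libraries lay far above all others, with a log2 fold of 4.81 ± 0.27 over the other fusions (adjusted p 6.32e-68) and 3.83 ± 0.31 over the Sir4-free library (adjusted p 1.61e-32). The median distance was 560 bp in both Yrm1 libraries, against 421 bp in the Sir4-free library. YNG1, a divergent gene that encodes a subunit of a histone acetyltransferase complex, starts 701 bp upstream of CYT1, so these sites are nearer to its start codon. The complex III share with Yrm1 was 0.583% ± 0.0232 (SD, n = 2), against 0.212% in the Sir4-free library.

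Of 43 members 5 were higher and 2 lower with Yrm1 than with the other fusions, beside 5.24% and 0.7% of all windows, and 3 were higher and 1 lower than in the Sir4-free library, beside 3.49% and 1.12%. The split over all windows moved with scaling by library size alone, with 262 higher and 35 lower against the other fusions becoming 230 and 78, and 193 and 62 against the Sir4-free library becoming 162 and 109. The counts behind the 4 other higher members were small. LSC2 had 11 and 10 sites against 0 to 8 in the other pooled libraries and 14 in the Sir4-free library. Its adjusted p was 8.53e-06 over the other fusions, where the fold has no standard error because a fusion had 0 sites, and the log2 fold over the Sir4-free library was 2.23 ± 0.57 (adjusted p 0.00287). That second call was lost without Yrm1 replicate 1 (adjusted p 0.0934). QCR2, the other core subunit of complex III, had 8 and 8 sites against 0 to 13 in the other pooled libraries and 12 in the Sir4-free library, with an adjusted p of 5.91e-05 over the other fusions and a log2 fold of 2.05 ± 0.64 over the Sir4-free library (adjusted p 0.0282). The QCR2 call over the Sir4-free library was lost without Yrm1 replicate 1 or 2, at adjusted p from 0.211 to 0.25. In shares the lower Yrm1 library was 1.25 times the highest other pooled library at LSC2 and 2.00 times at QCR2. For pooled fusions other than Sef1, the share of all windows without overlap was not counted.

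ATP14 and SDH1 were called against the other fusions only. ATP14 had 15 and 16 Yrm1 sites (log2 fold 1.35 ± 0.37, adjusted p 0.00476), a call lost without either Yrm1 library (adjusted p 0.0833 to 0.145). SDH1 had 15 and 9 (1.23 ± 0.40, adjusted p 0.0352), lost without Gal4, Rgm1, Rpi1 or Yrm1 replicate 1 (adjusted p 0.0564 to 0.891). At SDH1 the call also depends on where the displacement of chromosome 11 is taken to begin: from 150000 bp, Yrm1 had 13 and 9 sites there and the adjusted p was 0.167. Yrm1 was lower at IDH2, with 4 and 0 sites (-2.08 ± 0.66, adjusted p 0.0247, and -1.09 without Yrm1 replicate 2), and at MDH1, with 5 and 4 (-1.51 ± 0.49, adjusted p 0.0329). The mean of the other fusions includes Sef1 at both genes and Gal4 at MDH1, and against the Sir4-free library, with 30 and 28 sites, neither was called. Without Yrm1 replicate 1 the remaining library has 0 IDH2 sites, and the fitted fold is then -6.65, which depends on the prior count. The IDH2 call was lost without Gal4 or Sfg1 replicate 1 or Kar4 or Yrm1 replicate 2 (adjusted p 0.063 to 0.819), and the MDH1 call without Lee1, Sfg1 or Yrm1 replicate 1 or Kar4, Rgm1 or Yrm1 replicate 2 (adjusted p 0.0741 to 0.419). QCR10, a small complex III subunit, had 0 and 0 Yrm1 sites against 27 in the Sir4-free library (adjusted p 0.0209), at least 3.32-fold lower with a floor of 3 sites over both Yrm1 libraries. That call was lost without Yrm1 replicate 1 or 2 (adjusted p 0.235 to 0.286).

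The other 5 pooled fusions had 0 to 2 calls in each direction among these genes. Each count is given beside the share of all windows. Rpi1 was higher at 1 of 43 members, COX5B, beside 3.74% of windows, and lower at 0, beside 0.48% (1 lower at an unadjusted p below 0.05 in edgeR, 0 by DESeq2). COX5B, the form of subunit 5 of complex IV made when oxygen is low, had 8 and 11 Rpi1 sites against 0 to 5 in the other 14 and 12 in the Sir4-free library (adjusted p 8.03e-05, and 0.0864 without Rpi1 replicate 2). Kar4 was higher at COX13, with 7 and 4 sites (adjusted p 0.0431), and lower at MDH1, with 7 and 7 (log2 fold -1.43 ± 0.42, adjusted p 0.0155), beside 4.38% and 1.12% of windows. The COX13 call was lost without each of 10 libraries (adjusted p 0.0507 to 0.399), namely both replicates of Gal4 and Kar4, replicate 1 of Rgm1, Rpi1, Sef1, Sfg1 and Yrm1 and replicate 2 of Lee1, and the MDH1 call without either Kar4 library or Rgm1 replicate 2 (0.0671 to 0.371). At MDH1 the mean of the other fusions includes the high Sef1 and Gal4 values. Against the Sir4-free library, with 28 MDH1 sites, Kar4 was not called there. Over all windows Kar4 had 219 higher and 56 lower calls, and 290 and 32 with DESeq2's size factors.

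Sfg1 was higher at QCR8 and QCR10, small subunits of complex III, with 11 and 4 and 10 and 7 sites (adjusted p 0.0354 and 0.0267), and lower at COR1, with 54 and 8 (log2 fold -0.81 ± 0.28, adjusted p 0.0417), and MDH1, with 34 and 8 (-0.97 ± 0.31, adjusted p 0.0262), beside 10.6% and 1.44% of windows. At QCR10 the mean Sfg1 share, 0.0248%, was below the 0.0310% of Lee1 and the 0.0339% of the Sir4-free library. At QCR8 it was 0.0190%, and 1 Rgm1 library had 0.0210%. Rgm1 and Yrm1 had 0 QCR10 sites, and Gal4 and Yrm1 had 0 QCR8 sites. Over all windows the median Sfg1 log2 fold over the other fusions was 1.13. The mean of the other fusions includes the high Sef1 values at COR1 and MDH1 and the high Gal4 value at MDH1. Against the Sir4-free library, with 53 sites at COR1 and 28 at MDH1, Sfg1 was called at neither gene. The QCR10, QCR8 and MDH1 calls were lost without either Sfg1 library, the QCR8 and MDH1 calls also without Rgm1 replicate 2, and the QCR8 call without Gal4 replicate 1 (adjusted p 0.0517 to 0.257 in all). The COR1 call was lost without Kar4, Lee1, Rgm1, Sfg1 or Yrm1 replicate 1 or Rpi1 or Sfg1 replicate 2 (0.0519 to 0.245), and its log2 fold was -1.84 without Sfg1 replicate 1. Lee1 was higher at no member, beside 0.52% of windows, with 4 members at an unadjusted p below 0.05 in edgeR and 0 called by DESeq2. It was lower at CIT1, with 9 and 4 sites (-1.41 ± 0.42, adjusted p 0.0474), beside 0.84% of windows, a call lost without each of 12 libraries (0.0504 to 0.348), all but the Sef1 pair and replicate 2 of Gal4 and Yrm1. At CIT1 the mean of the other fusions includes the high Sef1 value. Against the Sir4-free library, with 40 CIT1 sites, Lee1 was not called there. Lee1 had 26 higher and 42 lower windows, and 109 and 33 by library size alone. Rgm1 was higher or lower at no member, beside 1.9% and 0.84% of windows, with 1 higher and 5 lower at an unadjusted p below 0.05 in edgeR and 0 by DESeq2, and its split of 95 and 42 became 121 and 4 by library size alone.

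Against the Sir4-free library Rgm1 was higher at 1 of 44 members, IDH2, beside 1.36% of windows, and lower at 0, beside 0.108% (6 lower at an unadjusted p below 0.05 in edgeR, 0 by DESeq2). IDH2 had 8 and 12 Rgm1 sites against 30 (log2 fold 1.82 ± 0.53, adjusted p 0.0357), in libraries of 4755 and 4946 sites, and without either Rgm1 library the call was lost (adjusted p 0.127 to 0.701). Rpi1, Kar4, Sfg1 and Lee1 were called at 0 members in that comparison, beside 1.77%, 1.57%, 0% and 0% of windows called higher and 0.0723%, 0.0904%, 0.0181% and 0.0361% called lower. At an unadjusted p below 0.05 in edgeR, Rpi1 had 1 member higher and 2 lower, Kar4 1 and 2, Sfg1 1 and 1, and Lee1 0 and 1, and DESeq2 called 0 for each.

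Leu3, the regulator of leucine synthesis, and Gcn4, the activator of amino acid synthesis, showed little at these genes. With Leu3 0 of 44 members were called by Fisher's exact test, beside 2.58% of windows higher and 0.0403% lower, and 4 had an unadjusted p below 0.05. With Gcn4 1 member was lower, beside 0.252% of windows, and 0 higher, beside 2.96%. This was ATP14, with 4 Gcn4 sites against 57 in the Sir4-free library, an odds ratio of 0.234 (0.0617 to 0.633, adjusted p 0.0376). For Gal4 from the plasmid, MDH1 and COR1 were the 2 members called higher, beside 3.01% of windows, and 0 were lower, beside 0.325%.

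Thi2, the activator of thiamine synthesis genes, had 9171 sites without thiamine and 27883 in complete medium. Without thiamine the cycle genes had 8 sites, 0.0872% (0.0377 to 0.172%), against 80 sites, 0.287% (0.228 to 0.357%), in complete medium, and the 2 intervals did not overlap. ACO1, IDH1, IDH2, FUM1 and MDH1 had 0 sites each without thiamine, against 8, 10, 7, 14 and 14 in complete medium. In the library without thiamine 3 sites, the least count taken as detectable, correspond to 0.0327%. Window by window 0 of the 25 members tested were called between the media by Fisher's exact test, beside 0.312% of 2563 windows higher and 0% lower, with FUM1 and MDH1 at an unadjusted p of 0.0283 and an adjusted p of 0.788. Compared with the Sir4-free library, 0 of 44 were called without thiamine (3 at an unadjusted p below 0.05) and 0 in complete medium (5), beside 0.479% and 0% of windows higher. With 1 library per medium, a difference between media and a difference between these libraries cannot be told apart.

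Other genes of respiration were read from lists chosen by function, to place the 44 beside the rest of the pathway for Sef1. Their counts stand beside 4.76% of all windows called higher with Sef1 than with the other fusions and 3.42% than in the Sir4-free library. Of 13 other respiratory subunits and dehydrogenases, 3 were higher with Sef1 than with the other fusions, and 3 than in the Sir4-free library. QCR6, the acidic subunit of complex III, had 249 and 278 Sef1 sites against 46 in the Sir4-free library (log2 fold over the other fusions 3.41 ± 0.17). NDE1, the external NADH dehydrogenase, had 215 and 206 against 52 (4.01 ± 0.17), and DLD1, a lactate dehydrogenase, 34 and 26 against 16 (3.60 ± 0.35). The other 10 genes of that list were not called against the other fusions. Of 29 assembly factors tested 1 was higher, CYT2, with 52 and 76 sites against 26, and its window overlaps that of MDH1. Against the Sir4-free library it was again the 1 called higher, of 31, and 1 other was lower.

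Of 23 isoenzymes and carriers 6 were higher with Sef1, in each of the comparisons. IDP2, the cytosolic NADP-dependent isocitrate dehydrogenase, had 36 and 33 Sef1 sites against 18 in the Sir4-free library (log2 fold 3.67 ± 0.33 over the other fusions). MDH2, the cytosolic malate dehydrogenase, had 49 and 42 against 31 (2.57 ± 0.26), and CIT2, the peroxisomal citrate synthase, 48 and 48 against 91 (1.55 ± 0.23). PYC1, pyruvate carboxylase, had 42 and 40 against 60 (1.78 ± 0.25), DIC1, the dicarboxylate carrier, 22 and 16 against 47 (1.38 ± 0.33), and OAC1, the oxaloacetate carrier, 17 and 14 against 21. The other 17 genes of the list were not called against the other fusions.

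Of 19 regulators tested 5 were higher than with the other fusions, and 4 of 21 than in the Sir4-free library. HAP4, the regulatory subunit of the Hap2/3/4/5 activator, had 429 and 364 Sef1 sites against 20 in the Sir4-free library (log2 fold 4.81 ± 0.17 over the other fusions), more sites than any of the 44. ROX1, the repressor of hypoxic genes, had 145 and 135 against 35 (4.58 ± 0.20), MOT3, another repressor of hypoxic genes, 87 and 102 against 45 (3.34 ± 0.20), and ADR1, an activator of genes for non-fermentable carbon, 76 and 68 against 34 (2.63 ± 0.22). HAP1, the haem-responsive activator, had 15 and 12 against 36 (1.18 ± 0.38) and was not called over the Sir4-free library (adjusted p 0.15). Among mitochondrial ribosomal proteins 2 of 68 were higher than with the other fusions, MRP4 with 13 and 7 sites and RSM7 with 12 and 12, and 0 of 72 over the Sir4-free library. The median log2 fold over the other fusions was 0.54 for the other respiratory genes, -0.24 for assembly factors, 0.24 for isoenzymes and carriers, 0.61 for regulators and -0.30 for mitochondrial ribosomal proteins, beside -0.05 for all windows.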

How the data were processed

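Each deposited file gives, for every insertion, its place, its direction and its reads, which per the labels and the series text are the authors' raw read counts with no normalization stated. Which aligner and build made them is not stated in the sources used here. Libraries were made, per the labels' protocols, by inverse PCR of DNA cut with Hinp1I, HpaII or TaqI and read on an Illumina GAII.

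From these files each distinct position and direction was counted as 1 site, whatever its reads; in the Sir4-free library 4019 sites listed more than once were counted once. Sites were assigned to the 1000 bp upstream of the start codon of 6002 nuclear genes of the R64 annotation. On chromosome 11 a constant displacement was applied from 200000 bp, found by comparing the sites with reading frames; elsewhere 77 of 84 chromosome segments lay within 60 bp, with a median of 20 bp. No reference coordinates are printed because the files name no build, and no promoter or protein sequence was used here.

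Counts were tested with edgeR 4.0.16 (R 4.3.3, limma 3.58.1; TMM, quasi-likelihood), each pooled fusion against the mean of the other 7 in the 16 pooled libraries (4998 windows of at least 10 sites) and against the Sir4-free library with 8 residual degrees of freedom (5534 windows), without replicate block. The mean of the other 7 was a mean of fitted log values and not of shares. The Sir4-free library is single, so its spread is taken from the pooled libraries. Single libraries were compared by two-sided Fisher's exact tests on windows of at least 5 sites. All p-values were adjusted over all windows tested, with a threshold of 0.05. Standard errors of edgeR folds were derived as the log2 fold without prior count divided by the square root of the F statistic. The folds printed beside them include the prior count. DESeq2 1.42.0 was an alternative. Shares and exact intervals at 95% were computed with scipy 1.17.1, pandas 2.3.3 and numpy 2.4.6 under Python 3.11.15, and figures with matplotlib 3.10.9. On simulated counts the Sef1 fit against the other fusions called 8.51% of 2-fold, 51.1% of 4-fold and 85.7% of 8-fold increases. It called 3 of 4442 unchanged windows. Fisher's exact test at the depth of the plasmid Gal4 library called 2.08%, 40.4% and 88%, and 2 of 4707 unchanged windows. A window not called can therefore still differ by such folds.

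Replicate numbers are those of the pools and were not taken to pair the libraries. The members and lists were chosen with earlier results of these data known. Named genes are all members called in any comparison, the 5 uncalled members with most and the 5 with fewest Sef1 sites, neighbours whose windows overlap a called member's, and genes of the other lists called for Sef1 against the other fusions; COX8 was named after its values were seen.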

Additional observations from a re-analysis of the deposited data

How the results depend on the processing

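The 8 Sef1 calls over the other fusions held in all 224 fits of 28 alternatives, and those over the Sir4-free library in 206 of 208, the exceptions being COR1 and ATP14 with a 500 bp window. The other 31 called member comparisons kept their call in 634 of 787 fits, lost it in 149 and changed sign in 4, all at COR1 with the 500 bp window: Gal4 pooled -0.051 over the other fusions and -1.19 over the Sir4-free library, Gal4 plasmid -1.40, and Sfg1 0.69 over the other fusions. Where no cause is named, the cause was not tested. The number of distinct sites limits all values, and members with under 10 sites in a library rest on few insertions. Counts of called members moved with the setting, the value in the report standing first. Against the other fusions, Gal4 lower 1 became 2 by library size alone and 0 with DESeq2's Wald test, with windows of at least 1 site, with 500 bp windows and with windows moved 60 bp downstream. Yrm1 higher 5 became 3 with 500 bp or with at least 5 reads per site. Yrm1 lower 2 became 0 with DESeq2 and 1 with 500 bp, 5 reads, 60 bp downstream or no shift on chromosome 11. Rgm1 higher 0 became 1 with DESeq2's size factors, library size alone or the replicate block, and Rgm1 lower 0 became 1 with at least 1 site, 60 bp downstream or the replicate block. Kar4 higher 1 became 0 by library size alone, DESeq2 or at least 1 site, and Kar4 lower 1 became 0 with 500 bp or 5 reads. Sfg1 higher 2 became 5 by library size alone, 0 with DESeq2 and 1 with 500 bp; Sfg1 lower 2 became 1 by library size alone or with 500 bp and 0 with DESeq2 or 5 reads. Lee1 higher 0 became 1 with DESeq2's size factors or library size alone, and Lee1 lower 1 became 2 with 60 bp downstream and 0 with each of DESeq2's size factors, library size alone, DESeq2, at least 1 site, 500 bp and 5 reads. Against the Sir4-free library, Sef1 lower 0 became 1 with DESeq2's size factors or 500 bp. Gal4 higher 3 became 1 with 5 reads, and Gal4 lower 1 became 2 with DESeq2's size factors, 3 by library size alone and 0 with DESeq2, at least 1 site, 60 bp downstream or Fisher's exact test in each replicate. Yrm1 higher 3 became 1 with DESeq2, 5 reads or Fisher's test, and Yrm1 lower 1 became 2 with 500 bp and 0 with DESeq2, 5 reads, 60 bp upstream or Fisher's test. Rgm1 higher 1 became 0 with DESeq2, at least 1 site, 500 bp, 5 reads, 60 bp downstream or Fisher's test, Rpi1 higher 0 became 1 with 500 bp or 60 bp downstream, and Gcn4 lower 1 became 0 with 500 bp, 5 reads or 60 bp downstream. The replicate block changed no other count of members. Over 318 windows, the correlation of deviations between same-numbered libraries had a median of 0.0669 over 28 pairs of fusions (-0.0451 to 0.198), with 11 above 0.1, which does not show that the numbers pair the libraries. The Sef1 shares with 500 bp windows, sites of at least 5 reads and reads in place of sites were 0.0614%, 0.0604% and 0.0441% for complex II, 0.135%, 2.53% and 5.15% for complex III, 0.0474%, 0.0527% and 0.0307% for complex IV, and 3.57%, 5.17% and 7.43% for the cycle, and for ATP synthase 0.127% with 500 bp and 0.228% of reads. Leaving out 1 library at a time gave 8 to 8 Sef1 members higher in both comparisons. Against the other fusions the ranges were 0 to 1 for Gal4 lower, Kar4, Lee1 and Rgm1 higher and lower, 0 to 2 for Rpi1 higher, 0 to 4 and 0 to 3 for Sfg1 higher and lower, and 3 to 6 and 0 to 3 for Yrm1. Against the Sir4-free library they were 0 to 1 for Gal4 lower, Rgm1 and Rpi1 higher and Yrm1 lower, and 1 to 3 for Yrm1 higher. Over all windows, the Sef1 counts of 238 higher and 1 lower against the other fusions became 144 and 32 with DESeq2's size factors, and 189 and 25 against the Sir4-free library became 137 and 163, with 109 and 11 for 500 bp windows and 116 and 9 for 5 reads. The 200000 bp start of the chromosome 11 shift was chosen after seeing the data, where the preset rule had 150000 bp. The fits from 150000 bp were an added alternative. Leaving the shift out was planned for the fits against the other fusions and added for the other comparisons.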
